A study of Mus musculus with 15 samples.

Results

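Platelet-derived growth factor (PDGF) was given to starved mouse fibroblasts, and the RNA of the treated cells was set against that of starved cells that did not receive it. The comparison uses 6 of the 15 libraries of the series, chosen by their labels: 3 of H2A-mCherry cells with PDGF and 3 of H2A-mCherry cells with no PDGF. Both groups are NIH3T3, an established line of mouse embryonic fibroblasts, with a stable doxycycline-inducible fusion of histone H2A to the fluorescent protein mCherry. In the series this line is the control for a nuclear inhibitor of the kinase complex mTORC1. The other 9 libraries, which entered the fit for its estimate of the spread, are H2A-mCherry cells with rapamycin and PDGF, H2A-mCherry cells with cycloheximide and PDGF, and H2A-TerminaTOR cells with cycloheximide and PDGF. The form and dose of PDGF, the time of treatment, the length of starvation, the use of doxycycline in each library and whether the line is a single clone were not stated in the labels. The libraries of a group are numbered 1 to 3 and are not said to come from separate cultures, so the p-values measure how far these libraries spread, which may reflect technical variation alone.

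PDGF dimers bind the receptor tyrosine kinases PDGFRα and PDGFRβ, which phosphorylate each other and recruit adaptors that switch on RAS and the MAP kinase ERK, PI3K and AKT, phospholipase Cγ and SRC. In fibroblasts PDGF is a classic competence factor: it starts the exit from quiescence, drives migration and induces immediate early genes, which are transcribed from pre-existing factors such as SRF and CREB. ERK signalling then induces its own inhibitors, while AKT holds FOXO transcription factors out of the nucleus.

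Promoter windows of 5 induced and 2 repressed genes are printed here, the induced ones chosen because they hold a match to an element of such a factor. The 5 induced genes below are the immediate early or MAPK feedback genes with the largest rises whose promoter window held a CRE, an AP-1 site or a CArG box, and the 2 repressed genes are among the largest falls. Genes on the chromosome that holds *Spry4* and *Egr1* were left out before this choice. Each window runs 5′ to 3′ from 250 bases before to 50 bases after a transcription start, from RefSeq on GRCm38.p6, with matches in capitals; a match is one of letters, and for a gene with several starts a window that held a match is shown. In *Egr2* (chr10:67537316-67537615, plus strand) they mark a CArG box, the DNA element bound by SRF, whose first base lies at −72 from the start, and in *Dusp5* (chr19:53528895-53529194, plus strand) 2 adjoining CArG boxes at −82 and −72. In *Maff* (chr15:79347270-79347569, plus strand) and *Errfi1* (chr4:150854820-150855119, plus strand) they mark the CREB element TGACGTCA at −29 and −51, and in *Dusp8* (chr7:142095235-142095534, minus strand) 2 copies of it at −107 and −63. The windows of *Smad6* (chr9:64022010-64022309, minus strand) and *Sh3d19* (chr3:85970868-85971167, plus strand) held no match to these 3 motifs or to the FOXO element GTAAACA.
Egr2: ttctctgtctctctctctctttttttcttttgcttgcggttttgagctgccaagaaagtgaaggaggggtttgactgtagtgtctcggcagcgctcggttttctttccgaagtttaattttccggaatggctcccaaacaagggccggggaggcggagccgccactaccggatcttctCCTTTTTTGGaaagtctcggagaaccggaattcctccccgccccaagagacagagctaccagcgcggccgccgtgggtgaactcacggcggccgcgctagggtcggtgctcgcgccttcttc
Dusp5: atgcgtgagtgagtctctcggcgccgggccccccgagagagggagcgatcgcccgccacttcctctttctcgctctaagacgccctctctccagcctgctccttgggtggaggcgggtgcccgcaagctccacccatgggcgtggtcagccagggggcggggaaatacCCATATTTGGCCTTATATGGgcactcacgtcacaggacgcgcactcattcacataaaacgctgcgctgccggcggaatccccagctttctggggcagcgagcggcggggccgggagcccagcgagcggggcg
Maff: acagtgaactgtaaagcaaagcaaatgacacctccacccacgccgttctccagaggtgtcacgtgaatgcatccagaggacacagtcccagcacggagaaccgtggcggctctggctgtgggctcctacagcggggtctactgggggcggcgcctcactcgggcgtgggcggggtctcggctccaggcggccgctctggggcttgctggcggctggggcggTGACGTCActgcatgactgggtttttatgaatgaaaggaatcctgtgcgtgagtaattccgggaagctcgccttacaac
Errfi1: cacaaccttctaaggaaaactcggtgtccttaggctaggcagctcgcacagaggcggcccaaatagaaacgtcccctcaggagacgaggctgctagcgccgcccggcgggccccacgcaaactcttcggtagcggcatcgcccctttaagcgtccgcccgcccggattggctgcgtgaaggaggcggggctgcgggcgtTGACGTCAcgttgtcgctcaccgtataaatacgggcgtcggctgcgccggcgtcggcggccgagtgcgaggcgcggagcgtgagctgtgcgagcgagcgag
Dusp8: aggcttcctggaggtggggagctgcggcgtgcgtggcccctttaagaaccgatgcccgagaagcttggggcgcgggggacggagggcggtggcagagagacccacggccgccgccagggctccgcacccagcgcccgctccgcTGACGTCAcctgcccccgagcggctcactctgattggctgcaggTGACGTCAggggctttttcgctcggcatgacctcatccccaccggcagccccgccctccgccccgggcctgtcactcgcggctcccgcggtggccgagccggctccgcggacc
Smad6: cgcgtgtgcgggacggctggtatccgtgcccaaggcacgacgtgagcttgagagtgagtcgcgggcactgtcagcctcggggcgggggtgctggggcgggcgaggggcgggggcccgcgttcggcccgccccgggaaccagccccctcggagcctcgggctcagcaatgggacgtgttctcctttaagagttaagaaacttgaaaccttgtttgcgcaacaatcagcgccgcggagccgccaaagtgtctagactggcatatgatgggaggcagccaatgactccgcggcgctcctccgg
Sh3d19: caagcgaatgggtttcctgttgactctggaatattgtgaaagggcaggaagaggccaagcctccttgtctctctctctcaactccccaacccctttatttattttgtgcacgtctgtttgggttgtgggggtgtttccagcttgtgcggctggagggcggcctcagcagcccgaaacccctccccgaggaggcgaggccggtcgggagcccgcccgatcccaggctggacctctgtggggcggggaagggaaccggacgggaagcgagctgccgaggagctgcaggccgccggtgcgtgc

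Levels are given as CPM, reads of a gene relative to the library total after TMM scaling. Every adjusted p comes from the quasi-likelihood test of edgeR, adjusted over the 10603 genes tested by the method of Benjamini and Hochberg. A gene was called higher or lower at an adjusted p under 0.05. With PDGF, 2128 genes (20.1% of those tested) were higher and 1794 (16.9%) lower, 37.0% in all. Of these, 964 (9.09%) rose and 661 (6.23%) fell at least 2-fold, 333 and 122 at least 4-fold, and 63 and 2 at least 16-fold. In 4894 genes (46.2%) the 3 PDGF libraries lay all above or all below the 3 libraries without it, and 3690 of these were called. Scaling by library size alone, which moved the median log2 change of all genes to −0.26 from −0.01, gave 1379 higher and 3111 lower, so that 30.7% in place of 54.3% of the called genes were higher. Genes called higher took 43.0% to 44.0% of the reads with PDGF and 27.5% to 28.2% without, and genes called lower 18.4% to 18.9% with PDGF and 29.8% to 30.6% without.

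**Figure D1:**
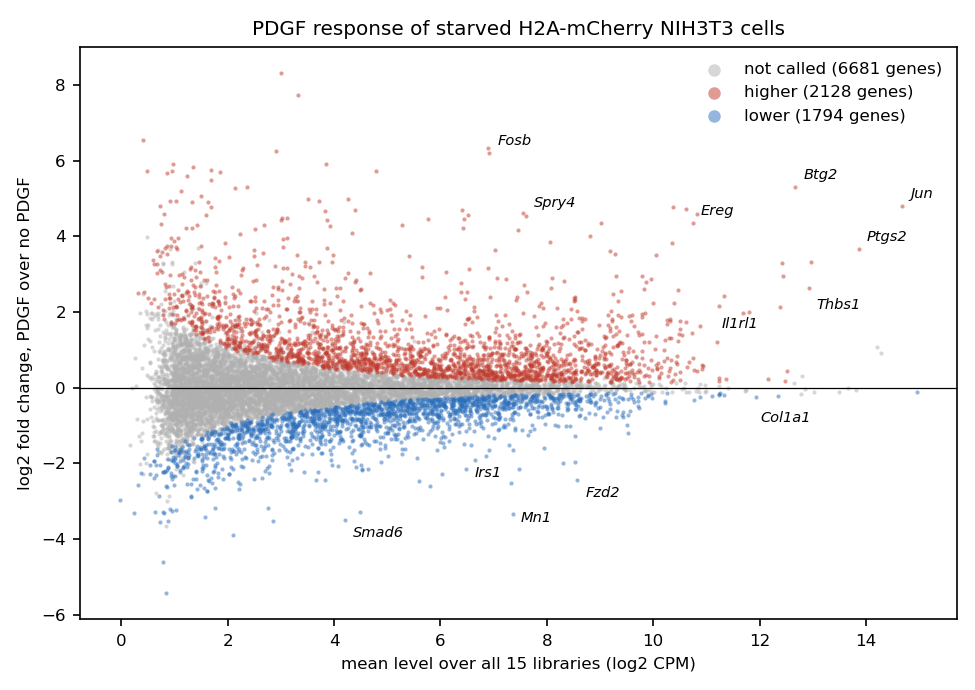
Log2 fold change, PDGF over no PDGF, against the mean level of each of the 10603 tested genes over all 15 libraries (log2 CPM). Red points are the 2128 genes called higher, blue points the 1794 called lower and grey points those not called, and the rises reach farther from 0 than the falls.

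The libraries held 3579179 to 4721169 counts with PDGF and 3892398 to 4521177 without. Mitochondrial genes took 8.69% to 9.30% of the counts with PDGF and 11.1% to 12.2% without, a difference whose part in the results was not tested. All 18 fibroblast markers had reads, with a summed level of 11442 to 12097 CPM with PDGF and 12569.8 to 12839 CPM without. Among the 16 that could be tested, 8 were higher and 5 lower, against 20.1% and 16.9% of all genes. Summed macrophage markers were at 15.97 to 20.1 CPM with PDGF (5 of 14 with a read) and 7.81 to 11.8 CPM without (6 of 14). Of the 14, 8 had 0 reads in all 6 libraries, among them *Ptprc*, *Adgre1*, *Csf1r* and *Itgam*. Endothelial markers summed to 5.18 to 7.44 CPM with PDGF and 3.74 to 4.18 CPM without, and epithelial and skeletal muscle markers to at most 4.39 and 3.73 CPM in any of the 6 libraries. In bulk RNA, a change in the number of cells of a kind and a change in the RNA per cell cannot be told apart.

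Immediate early transcription factors rose almost as a block. Of 39 listed genes 33 could be tested, and 30 rose and 1 fell, with a median log2 change of 2.35 against −0.01 over all genes, of which 20.1% rose and 16.9% fell (29 and 1 under library-size scaling). *Jun*, an AP-1 subunit gene (GRCm38 chromosome 4, 95049034 to 95052222), was at 6396, 6932 and 6479.6 CPM with PDGF, against 259, 267 and 190.2 CPM without, a 27.7-fold rise (log2 4.79 ± 0.12 SE, adjusted p = 8.2e-13). Every PDGF library lay far above every library without it. *Junb*, which forms AP-1 with a lower activity than *Jun* in many settings, was at 1620.2, 1788 and 1749 CPM with PDGF, against 196, 188 and 147 CPM without (9.73-fold, adjusted p = 8.34e-24). *Fosl2* was at 2738, 2665 and 2576 CPM with PDGF, against 571, 624 and 607 CPM without (4.43-fold, adjusted p = 4.89e-45). *Jund*, an AP-1 gene often present in resting cells, rose less, 2.99-fold (log2 1.58 ± 0.08).

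*Fosb* had 317 reads with PDGF and 5 without, at 26.4, 24.8 and 25.9 CPM with PDGF, against 0.363, 0.654 and 0 CPM without (log2 6.19 ± 0.39, adjusted p = 7.16e-13). Nearly all of this level lay in a transcript annotated with a retained intron, which averaged 25.7 CPM with PDGF and 0.346 CPM without. The level of *Fosb* without PDGF lies near the detection limit, and the log2 change was 6.94 when no-PDGF replicate 2 was left out. Its relative *Fos* was at 146, 134 and 138 CPM with PDGF, against 7.27, 5.24 and 4.67 CPM without (24.04-fold, adjusted p = 1.03e-15). The EGR zinc finger factors rose as well. *Egr3* was at 43.8, 40.1 and 42.9 CPM with PDGF, against 2.00, 2.18 and 0.748 CPM without (25.6-fold, adjusted p = 2.05e-29). *Egr2*, whose promoter is printed above, was at 5.23, 7.24 and 8.49 CPM with PDGF, against 0.182, 1.53 and 0 CPM without (log2 3.70 ± 0.45, and 5.90 without no-PDGF replicate 2). *Egr1* had 18 reads with PDGF and 6 without, too few for a firm value, and its call (adjusted p = 0.0346) was lost in 6 of the alternatives tried. The orphan nuclear receptor genes *Nr4a1* and *Nr4a2* rose by a log2 change of 4.23 ± 0.20 and 3.93 ± 0.37. *Nr4a1* was at 56.5, 49.9 and 48.3 CPM with PDGF, against 3.45, 1.75 and 2.80 CPM without, with no overlap. *Maff*, a small MAF factor without an activation domain and the gene with the CREB element at −29, had 112 reads with PDGF and 12 without (log2 3.51 ± 0.40, and 4.82 without no-PDGF replicate 3). *Myc*, the growth regulator, had 78 reads with PDGF and 26 without (log2 1.90 ± 0.44, and 2.60 without no-PDGF replicate 1). *Klf4*, *Klf6* and *Klf2*, Krüppel-like factors, rose 5.83-fold, 3.95-fold and 2.75-fold.

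The exception was *Elk3*, a ternary complex factor that can repress SRF targets in resting cells. It was at 58.9, 62.8 and 65.9 CPM with PDGF, against 97.8, 78.1 and 80.2 CPM without (log2 −0.45 ± 0.11, adjusted p = 0.000673). Its relative *Elk4* rose by a log2 change of 0.76 ± 0.08 (adjusted p = 2.03e-12). *Runx1*, a factor better known from blood cells, was at 88.1, 87.9 and 90.7 CPM with PDGF, against 14.4, 20.3 and 18.1 CPM without (5.08-fold, adjusted p = 2.33e-28).

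Feedback genes of the MAP kinase pathway, most of them inhibitors, formed the next strongest group. Of 25 listed genes 22 could be tested, and 16 rose and 3 fell (15 and 3 under library-size scaling). Their median log2 change was 1.45, and over all genes 20.1% rose and 16.9% fell. *Ier3*, an ERK substrate that opposes cell death rather than an inhibitor of ERK, was at 1091, 1073 and 1066 CPM with PDGF, against 50.7, 44.5 and 22.4 CPM without (27.5-fold, adjusted p = 2.02e-09). *Dusp4*, a nuclear phosphatase that inactivates ERK, was at 1859, 2000.4 and 1809.7 CPM with PDGF, against 152, 205 and 145 CPM without (11.3-fold, adjusted p = 8.47e-10). *Dusp5*, another nuclear ERK phosphatase and the gene with the paired CArG boxes, was at 682, 636 and 683 CPM with PDGF, against 52.3, 59.3 and 54.0 CPM without, and *Dusp8*, a phosphatase of JNK and p38 with 2 CREB elements, at 148, 159 and 129 CPM with PDGF, against 18.2, 21.4 and 22.3 CPM without. Their log2 changes were 3.60 ± 0.07 and 2.82 ± 0.10. *Spry4*, a Sprouty inhibitor of receptor tyrosine kinase signalling, was at 387, 392.3 and 395 CPM with PDGF, against 21.3, 14.8 and 14.03 CPM without, and *Spry2*, of the same family, at 616, 586 and 616 CPM with PDGF, against 54.9, 53.4 and 49.6 CPM without. Neither gene's groups overlapped. *Spred1* and *Spred2*, which recruit a RAS GTPase activator, rose 3.50-fold and 3.65-fold. *Errfi1*, an inhibitor of the EGF receptor, was at 24.5, 16.3 and 16.6 CPM with PDGF, against 1.64, 3.27 and 0.935 CPM without (log2 3.31 ± 0.32, adjusted p = 2.37e-13).

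Not all brakes of the pathway rose. *Dusp7*, a cytoplasmic ERK phosphatase, was at 18.5, 30.2 and 23.2 CPM with PDGF, against 81.9, 90.5 and 72.4 CPM without (3.39-fold lower, adjusted p = 1.11e-16). *Il17rd*, which encodes the FGF feedback inhibitor SEF, was at 12.1, 7.24 and 10.1 CPM with PDGF, against 37.2, 32.1 and 30.7 CPM without (3.39-fold lower). *Lrig3*, of a family of receptor regulators, was at 14.9, 11.9 and 8.08 CPM with PDGF, against 55.2, 38.0 and 47.3 CPM without (4.11-fold lower, adjusted p = 6.21e-14). In each of these 3 genes all PDGF libraries lay below all libraries without it.

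**Figure D2:**
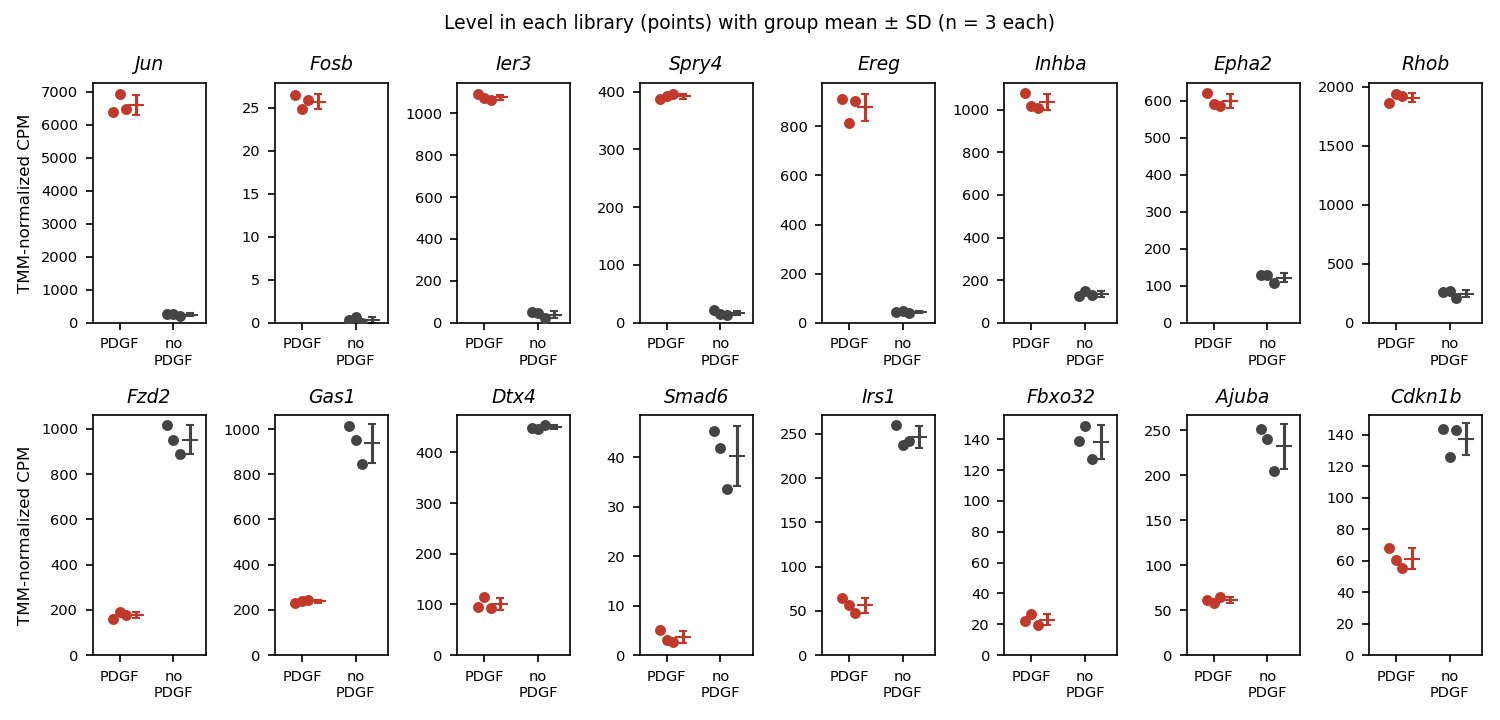
TMM-normalized CPM of 16 genes in each of the 3 PDGF libraries (red, left) and the 3 libraries with no PDGF (dark grey, right), with the group mean ± SD; each panel has its own linear axis from 0. In the upper row the PDGF libraries are higher and in the lower row they are lower, and in none of the 16 panels do the groups overlap.

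Secreted growth factors and cytokines rose in 21 of 41 tested (59 listed) and fell in 6 (18 and 9 under library-size scaling). Their median log2 change was 0.83, and over all genes 20.1% rose and 16.9% fell. *Ereg*, epiregulin, a ligand of the EGF receptor family, was at 912, 814 and 905 CPM with PDGF, against 44.0, 47.8 and 38.7 CPM without (20.2-fold, adjusted p = 5.5e-10), and *Hbegf*, a ligand of the same receptors, at 473, 422 and 446 CPM with PDGF, against 20.4, 19.4 and 25.4 CPM without. *Inhba*, the activin A subunit, was at 1078, 1019 and 1010.0 CPM with PDGF, against 127, 149 and 129 CPM without (7.67-fold, adjusted p = 1.24e-49). *Gdnf*, a neurotrophic factor, was at 201, 191 and 193 CPM with PDGF, against 35.4, 41.9 and 40.8 CPM without (4.96-fold). *Kitl*, stem cell factor, rose 2.58-fold and *Hgf*, hepatocyte growth factor, 1.99-fold (log2 1.00 ± 0.15). Their PDGF and no-PDGF libraries did not overlap.

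*Il6*, interleukin 6, had 99 reads with PDGF and 2 without (ratio per scaled total 62.0, 95% counting interval 16.7 to 519). *Il11*, interleukin 11, was at 89.2, 72.4 and 86.2 CPM with PDGF, against 4.36, 3.93 and 2.99 CPM without (21.8-fold, adjusted p = 2.91e-37). *Lif*, leukaemia inhibitory factor, had 60 reads with PDGF and 2 without (ratio 37.6, interval 9.95 to 317). *Il1rl1*, the IL-33 receptor gene, which also yields a secreted decoy, was at 5975, 5627 and 5739.7 CPM with PDGF, against 1315, 1400.1 and 1255 CPM without (4.37-fold, adjusted p = 2.34e-46). Nearly all of this level lay in a protein-coding transcript with 8 exons, which averaged 5766 CPM with PDGF and 1345 CPM without. No other transcript of *Il1rl1* was tested. The macrophage marker *Cd14* was higher too, at 11.6, 12.1 and 14.1 CPM with PDGF, against 3.45, 8.94 and 6.17 CPM without, and its part in the cytokine result was not tested. Among the falls, *Adm*, the vasodilator adrenomedullin, was at 9.64, 10.9 and 8.29 CPM with PDGF, against 47.8, 45.2 and 33.5 CPM without (4.41-fold lower, adjusted p = 1.69e-15). *Tgfb3* was at 140.2, 119.9 and 125 CPM with PDGF, against 226, 224 and 209 CPM without (1.71-fold lower), while *Tgfb1* rose 1.86-fold (adjusted p = 1.19e-12).

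Receptor tyrosine kinases leaned the other way. Of 34 listed PDGF ligands and receptor tyrosine kinases 22 could be tested, and 4 rose and 9 fell (2 and 12 under library-size scaling). The falls were 6 when PDGF replicate 2, PDGF replicate 3 or no-PDGF replicate 1 was left out. Their median log2 change was −0.37, and over all genes 20.1% rose and 16.9% fell. The PDGF receptors themselves were poorly read. *Pdgfra* was at 12.9, 8.27 and 10.98 CPM with PDGF, against 20.9, 11.1 and 24.1 CPM without (log2 −0.81 ± 0.24, adjusted p = 0.00416), a call lost without no-PDGF replicate 3 (log2 −0.58, adjusted p = 0.0803). Its protein-coding transcript with 23 exons was at 5.54 CPM with PDGF and 6.17 CPM without. That transcript was not called in the same test over transcripts (log2 −0.17, adjusted p = 0.76). A protein-coding transcript with 4 exons was called lower there (log2 −1.52, adjusted p = 0.0442). *Pdgfrb* did not pass the filter: it had 3 reads with PDGF and 22 without, and only 126 of its bases belong to a single transcript, the kind of base from which HTSeq's default counting takes a read. *Insr*, the insulin receptor, was at 112, 108 and 112 CPM with PDGF, against 217, 205 and 205 CPM without (1.90-fold lower, adjusted p = 1.72e-15), and *Igf1r* at 364, 319.7 and 328 CPM with PDGF, against 509, 496 and 502 CPM without (1.49-fold lower). *Met*, the receptor of hepatocyte growth factor, was 1.48-fold lower. *Ephb3*, an ephrin receptor, was at 10.2, 9.56 and 8.08 CPM with PDGF, against 20.7, 35.8 and 23.7 CPM without (2.88-fold lower). *Epha2*, another ephrin receptor, was among the 4 rises, at 623, 591 and 587 CPM with PDGF, against 129, 128 and 109 CPM without (4.92-fold higher, adjusted p = 1.03e-42). *Ddr2*, a collagen receptor, had 42 reads with PDGF and 8 without (6.34-fold higher).

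Adaptors and transducers downstream of the receptor made smaller moves. Of 40 listed genes 31 could be tested, and 11 rose and 3 fell, against 20.1% and 16.9% of all genes. Their median log2 change of 0.22 turned to −0.03 under library-size scaling, with 8 rises and 7 falls. The largest called rise was that of *Rasa1*, a GTPase activator that switches RAS off, at 157, 183 and 181 CPM with PDGF, against 83.8, 80.9 and 69.2 CPM without (log2 1.16 ± 0.09). *Stat3*, a transcription factor of cytokine and growth factor receptors, rose by 1.01 ± 0.23 on the log2 scale. *Cblb*, a ubiquitin ligase of activated receptors, rose by 0.73 ± 0.11 on the log2 scale. The regulatory subunits of PI3K moved in opposite directions: *Pik3r1* was at 111, 118 and 114 CPM with PDGF, against 68.0, 87.3 and 76.3 CPM without (log2 0.57 ± 0.10), and *Pik3r2* at 90.1, 87.1 and 90.3 CPM with PDGF, against 173, 161 and 162 CPM without (log2 −0.89 ± 0.09).

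Of the 12 largest fitted rises among protein-coding genes with a mean of at least 1 log2 CPM over all libraries, 11 belong to genes with at most 8 reads without PDGF, and the bounds of those with none do not rank them. *Btg2*, with 1268 reads without PDGF, is the exception among the 12. *Cish*, a SOCS-family inhibitor of cytokine signalling, had 110 reads with PDGF and 0 without, 45.9-fold higher against a floor of 3 counts over the group. Its tested transcript is annotated as a processed transcript, not as protein-coding. *Stc1*, stanniocalcin, had 145 reads with PDGF and 2 without (ratio 90.8, interval 24.7 to 757). *Ccdc85b* had 534 reads with PDGF and 8 without, with a log2 change of 6.33 ± 0.32 that became 8.44 without no-PDGF replicate 3. *Il23a*, a subunit of interleukin 23, had 15 reads with PDGF and 0 without (6.26-fold higher against a floor of 3 counts, before the counting error of the 15). *Klra2*, *Dnajb13*, *Slc8a2* and *Rcan1*, the last an inhibitor of calcineurin, had 19, 16, 13 and 11 reads with PDGF and 0 without. The filter and the floor on the mean used all 15 libraries, so a gene can enter through groups outside the comparison. *Slc8a2* averaged 1.09 CPM with PDGF and 9.12 CPM with cycloheximide and PDGF. With rapamycin and PDGF, *Il23a* averaged 14.5 CPM and *Rcan1* 5.92 CPM, against 1.22 and 0.919 CPM with PDGF. *Fgl2* had 102 reads with PDGF and 2 without (ratio 63.9, interval 17.2 to 534). By CPM gained, the largest rises were those of *Ptgs2*, *Thbs1*, *Jun*, *Il1rl1* and *Btg2*. *Ptgs2*, the prostaglandin synthase COX-2, was at 11969, 11825 and 11357 CPM with PDGF, against 926, 1011 and 857 CPM without, and *Thbs1*, the matricellular protein thrombospondin 1, at 9476, 8658 and 9694 CPM with PDGF, against 1582, 1509 and 1424 CPM without. *Btg2*, an antiproliferative factor that binds the deadenylase, was at 3089, 3253 and 3299 CPM with PDGF, against 99.2, 85.3 and 61.9 CPM without.

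The falls were smaller. *Mn1*, a transcriptional coregulator, was at 47.1, 58.4 and 43.1 CPM with PDGF, against 533, 480.4 and 469.9 CPM without, with a log2 change of −3.33 ± 0.09. *Sh3d19*, an adaptor with SH3 domains whose promoter is printed above, was at 0.551, 0.517 and 0.829 CPM with PDGF, against 7.27, 6.76 and 7.48 CPM without (10.7-fold lower, adjusted p = 1.01e-06). The transcript of *Sh3d19* that was tested is annotated with a retained intron and averaged 0.631 CPM with PDGF and 7.28 CPM without. It lies at bases 86125329 to 86129110, outside the printed window, and no protein-coding transcript of the gene was tested. *Ttc30b*, a tetratricopeptide protein of ciliary transport, was at 0.826, 0.775 and 0.621 CPM with PDGF, against 9.81, 9.16 and 7.11 CPM without (11.5-fold lower, adjusted p = 2.57e-10). *Chst12*, a chondroitin sulfotransferase, was at 5.51, 2.84 and 2.90 CPM with PDGF, against 36.7, 34.0 and 37.4 CPM without (9.77-fold lower, adjusted p = 9.66e-20).

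Intracellular members of the BMP and TGF-β pathway moved in both directions. *Smad6*, which blocks BMP signalling at its receptors (chromosome 9, 63953076 to 64022059), was at 4.96, 3.10 and 2.69 CPM with PDGF, against 45.2, 41.9 and 33.5 CPM without (log2 −3.51 ± 0.25, adjusted p = 3.24e-20). *Smad7*, the inhibitor with a wider range, rose by 0.70 ± 0.12 on the log2 scale. *Smad1*, a BMP effector, was at 120.3, 116 and 117 CPM with PDGF, against 48.0, 43.0 and 49.6 CPM without (2.51-fold higher, adjusted p = 2.28e-19), and *Smad3*, a TGF-β effector, at 831, 766 and 821 CPM with PDGF, against 347, 357 and 371 CPM without (2.25-fold higher). *Smad9*, a further BMP effector, fell 2.78-fold. *Tgfbr2*, the receptor that binds TGF-β, was at 65.0, 68.2 and 65.0 CPM with PDGF, against 114, 107 and 109 CPM without (1.67-fold lower). *Tgif1*, a corepressor of SMADs, rose 4.29-fold. *Id3*, a BMP target, had 18 reads with PDGF and 2 without (ratio 11.3, interval 2.70 to 100.1). Of 31 tested members of the list (42 in all) 14 rose and 8 fell, against 20.1% and 16.9% of all genes. That balance turned to 9 and 12 under library-size scaling, where the median of 0.19 became −0.06. *Id1*, another BMP target, had 0 reads in the 6 libraries.

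WNT and hedgehog genes fell in 15 of 24 tested (42 listed) and rose in 2, against 16.9% and 20.1% of all genes. The list's median log2 change was −0.52, and library-size scaling gave 16 falls and 1 rise. The rises were 1 without PDGF replicate 1 or 2 or no-PDGF replicate 1 or 3. The falls were 11 without PDGF replicate 1 or 3 or no-PDGF replicate 3, and 12 with DESeq2. *Fzd2*, a Frizzled receptor of WNT (chromosome 11, 102604396 to 102608058), was at 161, 189 and 177 CPM with PDGF, against 1017, 949 and 890.5 CPM without (5.41-fold lower, adjusted p = 4.14e-43). The related receptors *Fzd7*, *Fzd8* and *Fzd1* were 2.54-fold, 2.21-fold and 1.70-fold lower. *Lrp6*, the WNT coreceptor, was at 264, 254 and 259 CPM with PDGF, against 531, 493 and 546 CPM without (2.02-fold lower, adjusted p = 4.96e-22). *Fzd5* was the Frizzled gene called higher, at 129.7, 132 and 131 CPM with PDGF, against 55.1, 52.6 and 63.8 CPM without (2.29-fold higher, adjusted p = 1.87e-18). On the hedgehog side, *Gas1*, a hedgehog coreceptor first found as a gene of growth arrest in NIH3T3 cells, was at 232, 239 and 244 CPM with PDGF, against 1012, 954 and 844 CPM without (3.93-fold lower, adjusted p = 1.79e-37). The signal transducer *Smo* and the transcription factor *Gli3* fell by 0.42 and 0.66 on the log2 scale.

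The Notch pathway had 3 rises and 3 falls among 10 tested members (21 listed), against 20.1% and 16.9% of all genes. Under library-size scaling there were 3 rises and 4 falls. *Dtx4*, a Deltex ubiquitin ligase (chromosome 19, 12466338 to 12501454), was at 95.3, 114 and 92.4 CPM with PDGF, against 448, 446 and 455 CPM without (4.47-fold lower, adjusted p = 4.14e-36). *Jag1*, a Notch ligand, was at 41.9, 41.9 and 47.4 CPM with PDGF, against 19.3, 20.3 and 22.1 CPM without (2.13-fold higher), and *Rbpj*, the DNA-binding partner of Notch, at 57.6, 46.3 and 52.0 CPM with PDGF, against 20.7, 21.4 and 20.2 CPM without (2.50-fold higher). *Hes1*, a Notch target and an immediate early gene in other settings, had 118 reads with PDGF and 12 without (log2 3.56 ± 0.44, and 4.83 without no-PDGF replicate 1).

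**Figure D3:**
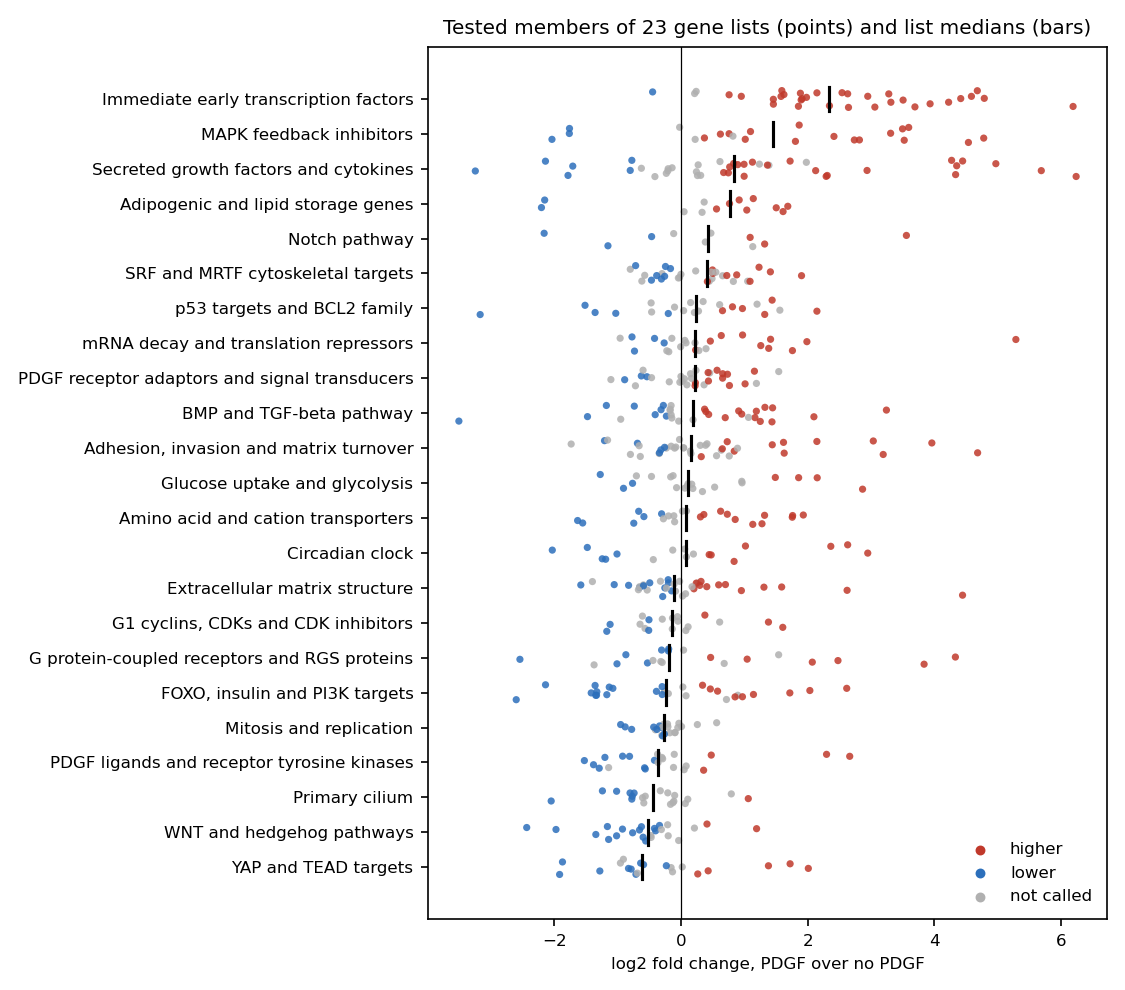
Log2 fold change, PDGF over no PDGF, of every tested member of 23 gene lists (points; red called higher, blue called lower, grey not called), with the list median as a black bar, ordered by that median. Immediate early genes (median 2.35) and MAPK feedback inhibitors (1.45) lie at the top, and WNT and hedgehog genes (−0.52) and YAP and TEAD targets (−0.61) at the bottom; a gene on several lists is drawn in each.

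FOXO, insulin and PI3K targets fell in 13 of 28 tested (33 listed) and rose in 9, against 16.9% and 20.1% of all genes. The list's median log2 change was −0.23, and library-size scaling gave 15 falls and 7 rises. *Irs1*, the insulin receptor substrate, was at 64.2, 57.1 and 47.6 CPM with PDGF, against 261, 238 and 242 CPM without (4.41-fold lower, adjusted p = 6.02e-26), and its relative *Irs2* was 1.23-fold lower. *Fbxo32*, the atrophy ubiquitin ligase atrogin-1 and a FOXO target in muscle, was at 22.3, 26.6 and 19.7 CPM with PDGF, against 139, 149 and 127 CPM without. *Foxo1* was at 17.6, 25.1 and 22.2 CPM with PDGF, against 56.5, 56.3 and 50.9 CPM without (2.51-fold lower, adjusted p = 1.04e-12). *Pik3ip1*, an inhibitor of PI3K, fell 2.67-fold and *Klhl24* 2.11-fold. *Ddit4*, the stress-induced mTORC1 inhibitor REDD1, was at 372, 406 and 375 CPM with PDGF, against 119.6, 132 and 99.7 CPM without (3.29-fold higher, adjusted p = 9.68e-07), and *Sesn2*, a leucine sensor that also restrains mTORC1, rose 1.96-fold. *Sesn1*, of the same family, fell 2.54-fold. *Trib1*, a pseudokinase that scaffolds a ubiquitin ligase, was at 238, 243 and 261 CPM with PDGF, against 60.9, 56.7 and 63.2 CPM without (4.1-fold higher).

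Among genes of cell death, *Bmf*, a BH3-only killer of the BCL2 family, was at 1.10, 1.81 and 1.24 CPM with PDGF, against 12.9, 13.5 and 11.6 CPM without (9.01-fold lower, adjusted p = 7e-11), and *Bcl2l11*, which encodes the killer BIM, at 18.7, 15.8 and 13.9 CPM with PDGF, against 44.0, 41.0 and 38.0 CPM without (2.56-fold lower). *Mcl1*, a survival protein of the family, was at 1448, 1509 and 1431 CPM with PDGF, against 524, 591 and 502 CPM without (2.71-fold higher, adjusted p = 9.71e-33). *Gadd45a*, a stress gene, was at 32.8, 51.7 and 42.7 CPM with PDGF, against 4.54, 7.85 and 8.41 CPM without, and *Plk2* rose 2.50-fold. *Trp53inp1*, a p53 target, had 30 reads with PDGF and 110 without (2.86-fold lower), and *Gadd45g* had 26 with PDGF and 7 without (4.43-fold higher). The p53 and BCL2 list held 6 rises and 5 falls among 22 tested (32 listed), which became 4 and 6 under library-size scaling, not far from the 20.1% and 16.9% over all genes.

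Genes of the G1 phase were called at about the rate of all genes: 3 of 18 tested (27 listed) rose and 4 fell, against 20.1% and 16.9% over all genes, and 2 and 7 did so under library-size scaling. *Ccnd2*, cyclin D2, was at 1073, 1051 and 1018 CPM with PDGF, against 389.6, 421 and 396 CPM without (2.61-fold, adjusted p = 1.49e-31). *Ccnd1*, cyclin D1, was at 63.6, 65.6 and 53.2 CPM with PDGF, against 62.5, 65.9 and 71.6 CPM without and was not called (log2 −0.14 ± 0.12, adjusted p = 0.378), but library-size scaling called it lower (log2 −0.39, adjusted p = 0.00384). *Cdkn1b*, the CDK inhibitor p27, was at 68.3, 60.5 and 55.1 CPM with PDGF, against 144, 126 and 143 CPM without (2.25-fold lower, adjusted p = 5.48e-16). *E2f7*, a repressor of cell cycle genes, fell 2.17-fold. Of 23 tested mitosis and replication genes (36 listed), 9 fell and none rose (16 and none under library-size scaling), against 16.9% and 20.1% of all genes. Their median log2 change was −0.28. With PDGF replicate 3 or no-PDGF replicate 2 left out, 1 rose and 7 fell. *Cenpf*, a kinetochore protein, was at 61.4, 51.4 and 53.6 CPM with PDGF, against 96.5, 116 and 109 CPM without (1.94-fold lower, adjusted p = 3.26e-12). *Plk1*, a mitotic kinase, *Kif11*, a spindle motor, and *Orc1*, a subunit of the origin recognition complex, fell by 0.78, 0.43 and 0.88 on the log2 scale.

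Primary cilia are organelles of resting cells that are taken down as the cycle resumes. Of 20 tested cilium genes (33 listed) 7 fell and 1 rose (10 and 1 under library-size scaling), against 16.9% and 20.1% of all genes. Their median log2 change was −0.45. The falls were 4 when PDGF replicate 2, PDGF replicate 3 or no-PDGF replicate 3 was left out. *Cep164*, a protein of the basal body appendages, was at 5.23, 3.62 and 4.56 CPM with PDGF, against 9.99, 8.94 and 8.23 CPM without (2.02-fold lower), and *Tctn1*, of the transition zone, at 14.9, 9.05 and 12.8 CPM with PDGF, against 20.7, 20.3 and 23.2 CPM without (1.75-fold lower). *Ift27*, of the intraflagellar transport complex, had 17 reads with PDGF and 91 without (4.14-fold lower). *Arl13b*, a GTPase of the ciliary membrane, was at 24.5, 27.1 and 25.5 CPM with PDGF, against 13.8, 11.8 and 11.2 CPM without (2.09-fold higher, adjusted p = 1.06e-06).

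Among cytoskeletal targets of SRF and its MRTF cofactors, 9 of 31 tested (44 listed) rose and 7 fell, not far from the 20.1% and 16.9% over all genes, and 6 and 10 did so under library-size scaling. *Zyx*, zyxin, was at 84.0, 61.3 and 75.2 CPM with PDGF, against 23.8, 16.1 and 18.5 CPM without (3.74-fold higher, adjusted p = 4.51e-19). *Tagln2*, a relative of transgelin, and *Tpm3*, a tropomyosin, rose 2.66-fold and 2.13-fold. *Vcl*, vinculin, was at 273, 270.3 and 267 CPM with PDGF, against 364, 358 and 336 CPM without (1.30-fold lower), and *Tpm1*, another tropomyosin, was 1.64-fold lower. YAP and TEAD targets fell in 9 of 20 tested (28 listed) and rose in 5 (15 and 3 under library-size scaling), against 16.9% and 20.1% of all genes. Their median log2 change was −0.61. *Ajuba*, which binds the kinase LATS, was at 60.9, 58.4 and 64.6 CPM with PDGF, against 252, 240.0 and 204 CPM without (3.78-fold lower, adjusted p = 1.13e-27). *Amotl2*, which binds YAP, was at 6.88, 6.20 and 6.84 CPM with PDGF, against 23.1, 25.1 and 25.1 CPM without. *Ccn1*, a secreted matricellular protein that SRF also controls, was among the 5 rises, at 896, 825 and 853 CPM with PDGF, against 224, 212 and 201 CPM without (4.03-fold higher, adjusted p = 3.59e-07).

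Genes of small GTPases that shape the actin cytoskeleton changed as well. *Rhob*, a short-lived endosomal GTPase, was at 1864, 1937 and 1922 CPM with PDGF, against 257, 269 and 213 CPM without (7.74-fold, adjusted p = 5.63e-24). *Rnd1*, an atypical GTPase that loosens stress fibres, was at 63.3, 57.4 and 59.4 CPM with PDGF, against 9.27, 4.58 and 7.48 CPM without (8.28-fold, adjusted p = 5.56e-28). *Rhoj*, a relative of Cdc42, rose 3.00-fold. *Cdc42ep2*, an effector of Cdc42, was at 170.2, 162 and 187 CPM with PDGF, against 771, 668 and 643 CPM without (4.01-fold lower, adjusted p = 1.59e-36).

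Adhesion and invasion genes rose in 12 of 39 tested (51 listed) and fell in 5, against 20.1% and 16.9% of all genes, which became 9 and 13 under library-size scaling. *Plau*, the protease urokinase, was at 64.2, 72.9 and 71.7 CPM with PDGF, against 28.2, 22.3 and 26.2 CPM without (2.72-fold). *Has2*, a hyaluronan synthase, was at 70.0, 62.5 and 71.7 CPM with PDGF, against 5.81, 10.03 and 6.73 CPM without, and *Cd44*, the hyaluronan receptor, at 12.1, 9.56 and 13.7 CPM with PDGF, against 2.00, 0.436 and 1.68 CPM without. Both were higher in every PDGF library. *Itga6*, a laminin-binding integrin, rose 3.07-fold. *Adamts5*, an aggrecan-cutting protease, was at 572, 544 and 499.6 CPM with PDGF, against 1281, 1183 and 1265 CPM without (2.31-fold lower, adjusted p = 3.73e-22).

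Structural matrix genes moved both ways, 12 up and 11 down of 37 tested (51 listed), against 20.1% and 16.9% of all genes. Library-size scaling gave 6 up and 18 down, and limma-voom 11 and 13. *Tnc*, tenascin C, a protein of wounds, was at 60.3, 33.9 and 51.6 CPM with PDGF, against 2.00, 1.31 and 3.18 CPM without, and *Fn1*, fibronectin, at 562, 433 and 508 CPM with PDGF, against 148, 178 and 173 CPM without (3.01-fold, adjusted p = 2.66e-12). The protein-coding transcript of *Fn1* averaged 125 CPM with PDGF and 44.7 CPM without. Much of the rest lay in transcripts annotated with a retained intron. *Col3a1*, a fibrillar collagen gene, was at 583, 552 and 674 CPM with PDGF, against 1017, 899 and 934 CPM without (1.57-fold lower), and *Col1a1*, another, at 3546, 3728 and 3776 CPM with PDGF, against 4389.8, 4455 and 4341 CPM without (1.19-fold lower, adjusted p = 3.46e-05). *Ogn*, the small proteoglycan osteoglycin, fell 1.77-fold, and *Emilin1*, a protein of elastic fibres, had 40 reads with PDGF and 153 without.

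G protein-coupled receptors and RGS proteins counted 6 rises and 7 falls among 20 tested (44 listed), against 20.1% and 16.9% of all genes. This balance was 5 and 8 under library-size scaling and 6 and 4 without PDGF replicate 2. Without PDGF replicate 1 or no-PDGF replicate 2 it was 6 and 5. *Rgs16*, an activator of the GTPase of G proteins, was at 253, 204 and 239 CPM with PDGF, against 18.4, 16.4 and 13.8 CPM without (14.3-fold, adjusted p = 8.08e-46), and *Rgs2* rose 2.06-fold. *Gprc5a* was at 395, 407 and 382 CPM with PDGF, against 93.9, 103 and 85.1 CPM without (4.21-fold). *F2r*, the thrombin receptor, was at 821, 879 and 833 CPM with PDGF, against 1225, 1219.9 and 1211 CPM without (1.44-fold lower, adjusted p = 3.31e-13), and *S1pr1*, a receptor of sphingosine 1-phosphate, fell 1.83-fold. *Ednra*, an endothelin receptor, had 37 reads with PDGF and 8 without (5.58-fold higher).

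In the list of glucose uptake and glycolysis 4 of 21 tested (29 listed) rose and 3 fell, also under library-size scaling, close to the shares over all genes. *Hk2*, the inducible hexokinase, was at 204, 205 and 194 CPM with PDGF, against 26.2, 31.4 and 25.2 CPM without (7.30-fold, adjusted p = 4.78e-33). *Slc2a1*, the glucose transporter GLUT1, was at 14.9, 14.7 and 15.7 CPM with PDGF, against 1.27, 4.799 and 4.30 CPM without, and *Slc16a1*, the monocarboxylate transporter MCT1, at 1129, 1095 and 1112 CPM with PDGF, against 304, 328 and 288 CPM without (3.63-fold). The phosphofructokinase genes diverged: *Pfkp* rose 2.81-fold and *Pfkl* fell 1.70-fold (adjusted p = 6.22e-08 and 3.89e-07).

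Amino acid and cation transporter genes rose in 11 of 23 tested (29 listed) and fell in 6, against 20.1% and 16.9% of all genes. Under library-size scaling 8 rose and 8 fell. *Slc7a11*, the cystine importer, was at 218, 185 and 189.9 CPM with PDGF, against 52.0, 55.2 and 48.1 CPM without (3.82-fold, adjusted p = 6.67e-24). *Slc7a1*, an arginine importer, was at 2244, 2167 and 2135 CPM with PDGF, against 619, 660.1 and 649 CPM without, and *Slc1a5*, a glutamine importer, rose 3.38-fold. *Slc12a2*, a sodium, potassium and chloride cotransporter, rose 1.54-fold, and *Slc20a1*, a phosphate importer, 2.43-fold. *Slc1a3*, a glutamate transporter, was at 8.54, 4.65 and 6.01 CPM with PDGF, against 23.98, 15.3 and 16.6 CPM without (2.93-fold lower, adjusted p = 8.64e-07). In the adipogenic and lipid list 8 of 13 tested (30 listed) rose and 2 fell, against 20.1% and 16.9% of all genes. Library-size scaling gave the same counts. *Cebpb*, a factor of the acute phase and of early adipogenesis, was at 759, 868 and 762 CPM with PDGF, against 285, 289.7 and 208 CPM without (3.06-fold, adjusted p = 2.84e-11). *Ebf3*, a transcription factor of the early B-cell factor family, had 17 reads with PDGF and 101 without. *Fabp5*, a fatty acid carrier, was at 3.30, 2.33 and 1.66 CPM with PDGF, against 9.81, 13.96 and 8.41 CPM without (4.45-fold lower).

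Among clock genes, 7 of 17 tested (21 listed) rose and 5 fell (7 and 8 under library-size scaling), against 20.1% and 16.9% of all genes. *Nfil3*, the repressor that binds the D-box element, was at 841, 824 and 827 CPM with PDGF, against 105, 119 and 99.3 CPM without (7.73-fold, adjusted p = 2.01e-42). The PAR bZIP factors activate through the same element: *Hlf* was at 31.1, 30.5 and 39.1 CPM with PDGF, against 80.3, 77.9 and 81.9 CPM without (2.37-fold lower, adjusted p = 9.14e-13), and *Tef* and *Dbp* were 2.01-fold and 4.09-fold lower. *Bhlhe40*, a repressor of the clock that growth factors induce, rose 6.20-fold, while its paralogue *Bhlhe41* fell 2.28-fold. *Cry1* and *Per2*, of the negative limb, rose 2.03-fold and 1.79-fold. *Arntl*, the BMAL1 gene of the positive limb, had 60 reads with PDGF and 14 without (5.16-fold higher).

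Regulators of mRNA decay rose in 10 of 24 tested (29 listed) and fell in 4, against 20.1% and 16.9% of all genes (8 and 6 under library-size scaling). The falls were 2 when PDGF replicate 2 or no-PDGF replicate 3 was left out. Those that rose include *Btg1*, which recruits the deadenylase, at 1376, 1444 and 1423 CPM with PDGF, against 584, 563 and 478 CPM without (2.61-fold, adjusted p = 1.61e-32). *Zfp36l1*, which targets AU-rich messages for decay, was at 258, 272 and 267 CPM with PDGF, against 94.1, 103 and 102 CPM without (2.67-fold), and *Zc3h12a*, the endonuclease regnase-1, at 69.7, 53.8 and 65.7 CPM with PDGF, against 23.8, 15.3 and 16.3 CPM without (3.39-fold). *Elavl1*, the stabilizing protein HuR, rose 2.40-fold. *Dcp2*, the decapping enzyme, was at 109, 87.1 and 92.8 CPM with PDGF, against 152, 161 and 167 CPM without (1.66-fold lower, adjusted p = 5.53e-10).

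The levels of the same genes in the control cells with rapamycin or cycloheximide added to PDGF are given as values only, since any comparison of those groups with the same controls would share libraries with the one above. Rapamycin inhibits mTORC1 and cycloheximide blocks translation. *Jun* averaged 6603 ± 288 CPM with PDGF, 5196 ± 415 with rapamycin and PDGF, 62079 ± 1997 with cycloheximide and PDGF and 239 ± 42.3 without PDGF (SD, n = 3 each). *Il11* averaged 82.6 ± 8.98 CPM with PDGF, 219.7 ± 6.37 with rapamycin, 69.7 ± 4.28 with cycloheximide and 3.76 ± 0.699 without PDGF. *Hk2* averaged 201 ± 5.97 CPM with PDGF, 345 ± 46.1 with rapamycin, 99.1 ± 11.7 with cycloheximide and 27.6 ± 3.33 without PDGF. For *Smad6* the means were 3.58 ± 1.21 CPM with PDGF, 4.68 ± 1.57 with rapamycin, 18.01 ± 2.77 with cycloheximide and 40.2 ± 6.06 without PDGF. For *Fzd2* they were 176 ± 13.8 CPM with PDGF, 64.6 ± 3.65 with rapamycin, 339.7 ± 20.0 with cycloheximide and 952 ± 63.3 without PDGF. The mean with rapamycin lay above the PDGF mean and the mean with cycloheximide below it for *Il11* and *Hk2*, and all 3 PDGF-treated groups stood below the no-PDGF mean for *Smad6* and *Fzd2*. Not every fall was of this kind: *Ttc30b* averaged 10.4 ± 0.79 CPM with cycloheximide and PDGF and 8.69 ± 1.41 without PDGF.

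**Figure D4:**
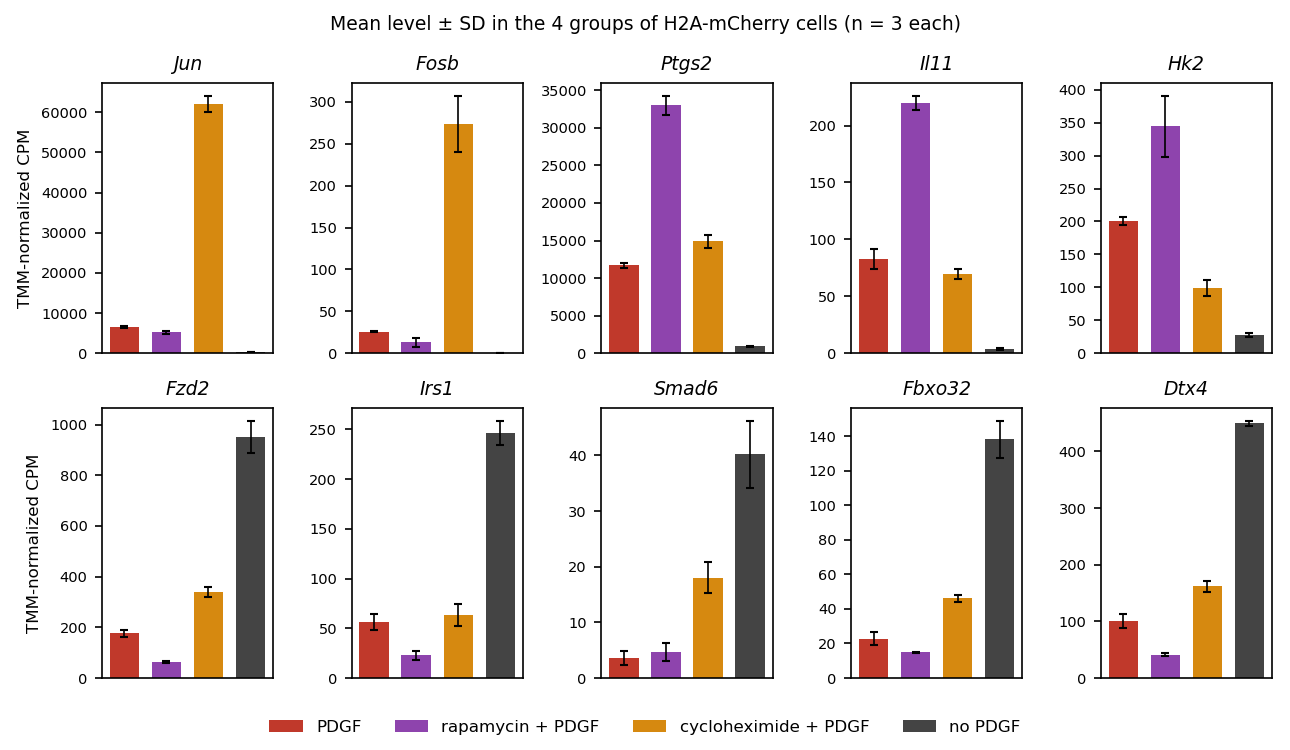
Mean TMM-normalized CPM ± SD (n = 3 each) of 10 genes in H2A-mCherry cells with PDGF (red), with rapamycin and PDGF (purple), with cycloheximide and PDGF (orange) and with no PDGF (dark grey), each panel on its own linear axis from 0. Fzd2, Irs1, Smad6, Fbxo32 and Dtx4 are lower in all 3 PDGF-treated groups than with no PDGF.

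Short motifs were also counted in the promoter windows of all tested genes. RefSeq windows were found for 6473 of the 8273 protein-coding genes tested, 7984 windows in all, and both strands were searched. CRE and AP-1 sites share their outer bases but cannot be the same match, and a CArG box can contain the TATA motif TATAAA. The AP-1 site TGANTCA was in 14.2% of 226 windows of genes higher at least 4-fold, 3.61% of 83 windows of genes lower at least 4-fold, 3.62% of 552 windows of genes lower at least 2-fold and 5.16% of all windows of tested genes. CArG boxes were in 3.98%, 2.41%, 1.27% and 1.33% of these windows, κB sites in 8.85%, 2.41%, 3.62% and 5.46%, and the CRE TGACGTCA in 5.31%, 3.61%, 2.54% and 3.38%. The ETS core CCGGAA was in 16.4%, 28.9%, 23.2% and 28.0%. The CRE share of the induced class rests on 12 windows and its CArG share on 9. In the class lower at least 4-fold, the AP-1, CRE, CArG and κB shares rest on 3, 3, 2 and 2 windows. A gene can have several windows (226 windows from 175 genes in the induced class), so 1 gene can supply several matches. No difference between these shares was tested. In all 32851 windows of the table, of expressed and silent genes, the AP-1 site was in 7.81% and the CArG box in 1.63%. These shares are descriptions of letters, and the classes also differ in gene structure. The median gene span was 16354 bases among the 225 protein-coding genes higher at least 4-fold, 19008.5 bases among the 102 lower at least 4-fold and 25523 bases among all 8273, and 34.7%, 30.4% and 21.8% spanned under 10 kb.

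**Figure D5:**
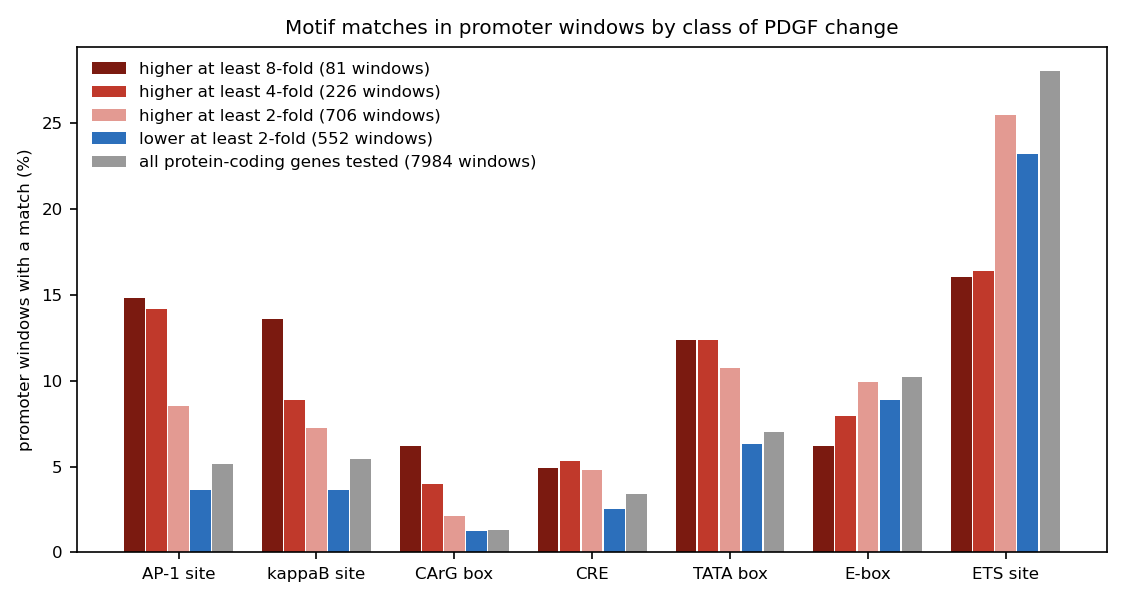
Share of promoter windows (250 bases before to 50 after a start) with at least 1 match to 7 motifs, in percent, for genes higher at least 8-, 4- or 2-fold with PDGF, genes lower at least 2-fold and all protein-coding genes tested. AP-1 sites, κB sites and CArG boxes have their tallest bars in the 8-fold class (14.8%, 13.6% and 6.17%, or 12, 11 and 5 of 81 windows). Among the classes drawn the ETS site has its tallest in that of all genes (28.0%).

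The files count transcripts, so the comparison was also made before the sum per gene. Of 13116 transcripts tested, 2378 (18.1%) were higher and 1954 (14.9%) lower with PDGF, 33.0% in all, and 3188 were lower under library-size scaling. Among 2115 genes with at least 2 tested transcripts, 13 had calls in opposite directions, and in none of these did both transcripts change 2-fold. Transcripts annotated with a retained intron were higher in 430 and lower in 254 of 2852 tested (median log2 change 0.09), against 1466 higher and 1451 lower of 6937 protein-coding ones (median −0.03). For *Bhlhe40* the protein-coding transcript averaged 486 ± 30.4 CPM with PDGF and 79.8 ± 6.68 CPM without, and the transcript with a retained intron 13.4 ± 2.43 CPM with PDGF and 2.15 ± 0.45 CPM without (SD, n = 3 each). Both had the same log2 change of 2.61. For some named genes no protein-coding transcript was tested. The tested ones of *Fosb*, *Arntl*, *Ebf3*, *Fabp5*, *Pfkp*, *Sh3d19*, *C2cd5* and *Ttyh3* are annotated with a retained intron. Those of *Amotl2* are annotated with a retained intron or for nonsense-mediated decay, and those of *Cish*, *Ddr2*, *Rcan1* and *Trp53inp1* as processed transcripts. Changes given for these genes may therefore not be those of the coding transcript.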

How the data were processed

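RNA-seq of 15 samples, 3 in each of 5 groups, was used as deposited: the authors' read counts per transcript, made with HISAT2 2.2.1, HTSeq 0.9.1 and R 4.1.0 per the submitters' processing notes. Those notes name the build hg38, although the identifiers are those of mouse transcripts. The deposited counts were summed per gene through the GENCODE M21 annotation of GRCm38: 141536 of 142446 transcripts matched, and the 910 others held 0.0309% of the counts. If HTSeq was run in its default mode, which the sources used here do not say, a read that fits several transcripts is not counted, so sums rest on bases of single transcripts and levels of different genes are not comparable. Near-identical copies and, without strand, overlapping genes can share reads.

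Counts of all 15 samples were fitted together with edgeR 4.0.16 in R 4.3.3 (TMM scaling, filterByExpr, robust quasi-likelihood F test, Benjamini-Hochberg over all genes tested, threshold 0.05). The standard error is the absolute log2 change over the square root of F. TMM factors were 1.00 to 1.03 with PDGF and 1.18 to 1.22 without. The alternatives were median-of-ratios and library-size scaling, no filter, the 6 samples alone, a replicate block, leaving out each library, DESeq2 1.42.0 and limma-voom (limma 3.58.1). A fold against 0 reads is a bound set by a floor of 3 counts over the group. Intervals cover counting error only, and a floor covers only that of the group with 0 reads. The reads carry no molecular identifiers in the sources used here.

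The comparison, the gene lists and the tests were chosen with earlier results of these data known. The rule for named genes took the 12 largest rises and falls by fold among protein-coding genes, the 5 largest of each by CPM, up to 4 called members of each list, 3 non-coding genes each way and 8 genes by name. It also asked for genes with 2 transcripts changed at least 2-fold in opposite directions, of which there were none. A further 79 tested genes, mostly list members with more reads, were named after their values were seen. A few list members and the counts of 1 list are not reported here.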

Additional observations from a re-analysis of the deposited data

How the results depend on the processing

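Median-of-ratios scaling gave 2133 genes higher and 1786 lower with PDGF, DESeq2 2075 and 1664, limma-voom 2132 and 1811, the 6 compared samples alone 2012 and 1778 of 9055 tested, and no filter on low counts 1956 and 1517 of 28380 tested. Scaling by library size gave 1379 higher and 3111 lower genes, and 3188 lower transcripts. Leaving out each library in turn gave 1916 to 2068 genes higher, 1456 to 1605 lower and 1483 to 1645 at least 2-fold. The counts for transcripts were then 2123 to 2377 higher and 1554 to 1681 lower. Same-numbered libraries of the groups did not vary together (correlations of their deviations 0.0227, 0.0629 and 0.00403), so the numbers do not pair them, and a fit with the replicate number as a block gave 2139 higher and 1794 lower. Of the 208 genes with a value in the comparison that the rule or the text names, 207 were called. All alternatives that tested them kept 195 of these calls and 12 were lost in at least 1: *Egr1*, *Pdgfra*, *mt-Co1*, and the list members *E2f3*, *Fgfr2*, *Icam1*, *Ift46*, *Lfng*, *Myh10*, *Slc7a3*, *Tgfb2* and *Zfp36*, for which the text therefore gives no fold. No direction was reversed. The fold of 22 called genes moved by over 1.5 times when 1 library was left out, each with at most 31 reads in 1 of the groups. Counts limit genes near silence: where a group has 1 to 3 reads, a ratio with its interval is given in place of the fitted fold. That interval pools the libraries of a group, so it covers counting error and not the spread between libraries. The uncertainty may be wider.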

Other observations

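PDGF libraries were higher in 61 and lower in 37 of 370 antisense genes tested, higher in 51 and lower in 28 of 305 lincRNA genes, and higher in 8 and lower in none of 35 snoRNA genes (edgeR's quasi-likelihood test, adjusted p under 0.05). For antisense and lincRNA genes both shares lie below the 20.1% higher and 16.9% lower over all genes. *8030451A03Rik* was at 41.3, 26.4 and 29.6 CPM with PDGF, against 1.09, 0.654 and 0 CPM without, with a log2 change of 5.73 ± 0.35 that became 6.604 without no-PDGF replicate 1. *Gm12946* was at 18.2, 11.9 and 15.5 CPM with PDGF, against 0.727, 0.436 and 0.187 CPM without (31.6-fold, adjusted p = 1.07e-17), and *Gm19619* had 42 reads with PDGF and 1 without (ratio per scaled total 52.6, 95% counting interval 8.94 to 2126). Among the falls, *Gm12786* was at 1.38, 0.258 and 1.04 CPM with PDGF, against 7.09, 3.93 and 6.54 CPM without (6.44-fold lower), *A930024E05Rik* was 6.40-fold lower and *4930516B21Rik* 4.63-fold lower. The labels do not say whether the counting used strand, so an antisense gene and its partner cannot be told apart.

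Some of the largest falls by fold or by CPM lie outside the pathways described. *C2cd5*, a calcium-binding protein of glucose transporter traffic, was at 0.551, 1.29 and 1.04 CPM with PDGF, against 7.09, 8.94 and 10.8 CPM without (9.001-fold lower). Its tested transcript, annotated with a retained intron, averaged 0.402 CPM with PDGF and 4.37 CPM without. *Zfp41* and *Ttyh3* were at log2 changes of −2.73 and −2.66, which became −3.40 without PDGF replicate 2 and −3.43 without PDGF replicate 1. *Xkrx* had 4 reads with PDGF and 34 without, and *Hal*, histidine ammonia-lyase, 3 with PDGF and 31 without. *Lrp1*, an endocytic receptor that binds PDGF receptor β, was at 5588, 5512 and 5401 CPM with PDGF, against 6310.2, 6319 and 6758 CPM without (1.17-fold lower, adjusted p = 0.000269). The mitochondrial gene *mt-Co1* averaged 31811 ± 973 CPM with PDGF and 34699 ± 2087 CPM without (SD, n = 3 each), a call (adjusted p = 0.0382) that 9 of the alternatives lost.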
